A study of Mus musculus with 25 samples.

Results

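The transcripts described here encode 9 ADAM proteins of the male reproductive tract, Adam1a, Adam1b, Adam2, Adam3, Adam5, Adam24, Adam32, Adam7 and Adam28. They were chosen by symbol, and they are 9 of the 24358 genes in the deposited table. Adam1a, Adam1b, Adam2, Adam3, Adam5, Adam24 and Adam32 are the 7 testicular members, and Adam7 and Adam28 are the 2 epididymal members. All 9 had a valid estimate in every condition.

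RNA was extracted from sperm that swam out of the cauda epididymis of males aged 14 weeks and was sequenced with the all-RNA-seq protocol, which treats RNA ends so that every RNA type can be ligated. C57BL/6J or FVB/N females received DEHP, a phthalate plasticizer, by mouth at 300 mg/kg/day on embryonic days 9 to 19 of pregnancy, or corn oil alone. The 5 conditions were C57.CTL.F1 and FVB.CTL.F1 (sons of females given corn oil), C57.D300.F1 and FVB.D300.F1 (sons of females given DEHP), and C57.D300.F2 (sons of C57.D300.F1 males and unexposed females). Each condition was represented by 5 libraries. The samples hold no F2 vehicle control, and the paper states that its design lacked one.

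The table holds 1 scaled count per gene and condition, a Cuffdiff estimate of fragments that combines the 5 libraries and is not divided by gene length. Without values of single libraries, no difference could be tested against the spread between mice. The SD printed beside a count is the one of Cuffdiff's model and is not a measured spread between mice. A gene was counted as higher or lower when the ratio of the counts, with 1 added to each, reached 2 log2 units and 1 of the compared conditions had at least 10 counts. The labels mark the 10 C57BL/6J libraries of generation F1 as a re-analysis and leave the remaining 15 unmarked. Strain, and F2 against F1, therefore cannot be told apart from the library set, whereas DEHP against vehicle stays within a set in each strain.

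ADAM proteins are membrane glycoproteins with a metalloprotease domain and a disintegrin domain, and in many of the testicular ones the catalytic site is degenerate. ADAM1A, ADAM1B and ADAM2 are the subunits of fertilin, in which ADAM2 is the shared beta partner. Fertilin assembly in testicular germ cells is needed for ADAM3 to reach the sperm surface, where ADAM3 serves in migration through the uterotubal junction and in binding to the zona pellucida. ADAM7 is made by the epididymal epithelium and is transferred to sperm during transit, and ADAM28 is also made in the epididymis as well as in lymphocytes.

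The coding sequences themselves separate the members by their catalytic site. Each was translated and searched for the zinc-binding histidine motif of active ADAM proteases. It was found in 4 of the 9 members, namely Adam1a, Adam1b, Adam24 and Adam28, and these letters were not in the coding sequences of Adam2, Adam3, Adam5, Adam32 and Adam7. The site is shown because it separates genes whose counts are set side by side here. Capitals mark the codons of the 3 histidines, the glutamate and the glycine of the motif, 5′ to 3′ along the coding strand of GENCODE M21 transcripts on GRCm38.
Adam1a: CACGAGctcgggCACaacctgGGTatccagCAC
Adam1b: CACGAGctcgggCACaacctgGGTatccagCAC
Adam24: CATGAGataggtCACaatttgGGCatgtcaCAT
Adam28: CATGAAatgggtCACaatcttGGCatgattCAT
These bases lie in coding exons at chr5:121520089-121520121 on the minus strand in Adam1a (codons 370 to 380), chr5:121501937-121501969 on the minus strand in Adam1b (codons 338 to 348), chr8:40680518-40680550 on the plus strand in Adam24 (codons 342 to 352) and chr14:68633167-68633199 on the minus strand in Adam28 (codons 342 to 352). The site is the same base for base in Adam1a and Adam1b.

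The 9 genes lie in 5 places. Adam1b (chr5:121500098-121503435) and Adam1a (chr5:121518576-121545482) are neighbours on the minus strand. Adam3 (chr8:24677225-24725852), Adam5 (chr8:24727093-24824369) and Adam32 (chr8:24836140-24948804) form a row on the minus strand, and Adam24 (chr8:40675077-40682199) is on the plus strand of the same chromosome. Adam2 (chr14:66027329-66077733) is on the minus strand of chromosome 14, as are Adam7 (chr14:68497336-68533741) and Adam28 (chr14:68606027-68655842).

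Sequence shared between genes limits some of the counts. Of all 25-base words in the annotated exons, 78.7% of those of Adam1a also occur in another gene, mostly in the gene model Gm42878. For Adam1b the share was 33.7%, and each of these 1116 words is in Adam1a. How Cuffdiff divided such reads is not given in the sources used here, so the counts of Adam1a and Adam1b are uncertain. In the other 7 members the share was between 0% and 1.73%.

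Whole-table values set the frame for the members. Counts summed to between 6921688 and 8602900 per condition, and between 15883 and 16612 genes had at least 10 counts. The 12 testicular germ cell markers, such as the protamines Prm1 and Prm2, all had at least 10 counts in each condition, and so did the 10 markers of epididymal epithelium. The germ cell markers summed to 91627 counts with vehicle, 77520 after DEHP and 31606 in the F2 of C57BL/6J, and to 7482 with vehicle and 9022 after DEHP in FVB/N. C57.CTL.F1 stood apart by its seminal vesicle markers, which summed to 241404 counts against 75.6 to 520 elsewhere, and the liver markers summed to 196357 and 164179 in the C57BL/6J F1 conditions against 629 to 4256 in the others. The part of these differences in the results below was not tested.

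Adam5, Adam3, Adam32 and Adam2 were the most abundant testicular members, with the same broad pattern over the conditions. Adam5, a testis-specific ADAM, had in C57BL/6J 646 ± 158 counts (model SD) with vehicle, 712 ± 175 after DEHP in the F1 and 361 ± 84.9 in the F2, and in FVB/N 118 ± 31.9 with vehicle and 151 ± 41.1 after DEHP. Adam3 had 448 ± 112, 421 ± 102, 231 ± 55.8, 59.5 ± 17.9 and 107 ± 31.0 counts in the same order, which is kept below wherever 5 values follow each other. Both were highest in the C57BL/6J F1 conditions, intermediate in the F2 and lowest in FVB.CTL.F1.

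Adam2, the beta subunit of fertilin, had 201 ± 48.9, 169 ± 42.3 and 80.4 ± 23.1 counts in the C57BL/6J conditions and 23.7 ± 8.94 and 42.4 ± 14.1 in the FVB/N conditions. Adam32, a testis-expressed ADAM that neighbours Adam5, had 211 ± 53.0, 197 ± 49.7, 102 ± 27.7, 27.6 ± 9.70 and 35.7 ± 12.2 counts. The order of the conditions was the same for Adam2, Adam3 and Adam32, and Adam5 differed from it only between the C57BL/6J F1 conditions, by less than the model SD of either.

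The alpha subunits were lower and flatter. Adam1a, the alpha subunit of the fertilin that assembles in the testis, had 56.2 ± 17.0, 40.8 ± 13.3, 36.7 ± 12.1, 28.3 ± 10.05 and 33.02 ± 11.1 counts in the same order. Adam1b, the alpha subunit found on mature sperm, had 19.7 ± 7.75, 19.4 ± 7.55, 20.7 ± 7.94, 10.97 ± 5.29 and 24.8 ± 9.22. Adam24, also known as testase 1, was the lowest of the 7, with 10.6 ± 5.10, 14.2 ± 6.24, 13.0 ± 5.74, 4.61 ± 3.16 and 6.02 ± 3.46. The highest count exceeded the lowest by 1.99-fold for Adam1a, 2.26-fold for Adam1b and 3.08-fold for Adam24, against 8.46-fold for Adam2, 7.65-fold for Adam32, 7.52-fold for Adam3 and 6.03-fold for Adam5.

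**Figure D1:**
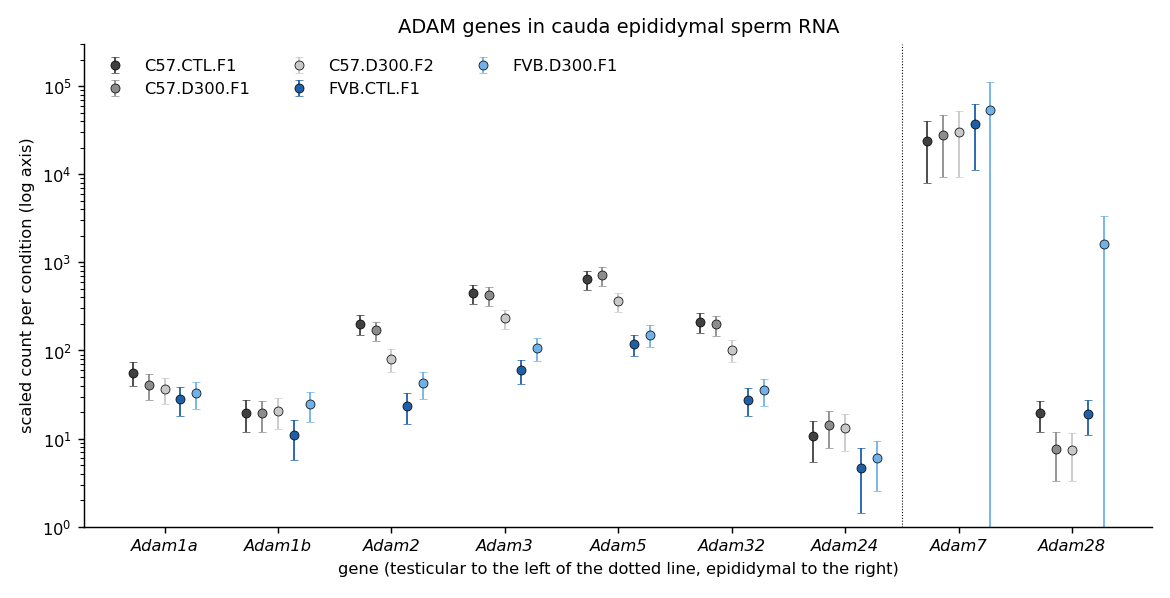
Scaled count of each of the 9 ADAM genes (log axis) in the 5 conditions, with bars for the SD of Cuffdiff's model, cut at the foot of the axis where they reach below 1. The 4 abundant testicular genes step down from the C57BL/6J F1 conditions to the F2 and to FVB/N, Adam7 lies between 23918 and 53922 counts, and Adam28 is at 19.4 counts or lower except in FVB.D300.F1.

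The epididymal members had other patterns, and they differed from each other. Adam7 had 23918 ± 16066 counts with vehicle, 28056 ± 18668 after DEHP and 30429 ± 21092 in the F2 of C57BL/6J, and 37310 ± 26055 with vehicle and 53922 ± 58405 after DEHP in FVB/N. It was the highest of the 9 in all 5 conditions, it ranked between 9 and 32 among all genes, and it took 0.278% to 0.651% of all counts. Its model SD was 0.665 to 0.698 of the count in 4 conditions and 1.08 of it in FVB.D300.F1, and genes with at least 10000 counts had a median of 0.557 to 0.685, so the order of the conditions for Adam7 is not separated by this error.

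Adam28 had 19.4 ± 7.51 counts with vehicle, 7.66 ± 4.35 after DEHP and 7.43 ± 4.13 in the F2 of C57BL/6J, and in FVB/N it had 19.1 ± 8.13 with vehicle and 1612 ± 1718 after DEHP. It was thus near the limit of what is counted in 4 conditions and abundant in the last. There the model SD exceeded the count, at 1.07 of it, whereas the median over the 999 genes with 1000 to 3000 counts in that condition was 0.268.

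Levels of different genes are comparable only per length, and the coding length was used for this since the annotated exons of Adam1a and Adam28 include long transcript variants. On that scale of counts per kb of coding sequence, Adam7 ranked 1 in every condition, and Adam5 and Adam3 ranked 2 and 3 in all conditions but FVB.D300.F1, where Adam28 ranked 2. In C57.CTL.F1 the levels per kb were 10105 for Adam7, 279 for Adam5, 181 for Adam3, 93.3 for Adam32, 91.0 for Adam2, 23.7 for Adam1a, 8.15 for Adam28, 8.13 for Adam1b and 4.64 for Adam24. The neighbours Adam32 and Adam2, and Adam28 and Adam1b, did not differ beyond their model SDs.

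The subunits of fertilin were not in a fixed proportion. Per kb of coding sequence, Adam2 exceeded Adam1b by 11.2-fold, 9.59-fold and 4.25-fold in the C57BL/6J conditions and by 2.37-fold and 1.88-fold in the FVB/N conditions. The level of Adam2 over that of Adam1a was 3.84, 4.47, 2.35, 0.902 and 1.38 in the same order. Per kb of annotated exons it was 9.96, 11.6, 6.10, 2.34 and 3.58, so Adam1a exceeded Adam2 in FVB.CTL.F1 only on the coding length. By contrast, the level of Adam3 over that of Adam2 stayed between 1.99 and 2.57, and that of Adam5 over Adam3 between 1.51 and 2.11. Within the summed counts of the 7 testicular members, Adam1a made up 2.59% to 4.35% in the C57BL/6J conditions and 10.4% and 8.25% in the FVB/N vehicle and DEHP conditions. The shared sequence of Adam1a and Adam1b applies to these ratios, and its part in them was not tested.

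Between DEHP and vehicle in C57BL/6J the members differed little. None of the 9 was higher or lower by 2 log2 units, and over the 16825 genes with enough counts 0.0357% were higher and 0.256% lower. The testicular members lay between -0.45 (Adam1a) and 0.39 (Adam24) on the log2 scale, with a median of -0.09 beside -0.01 for all genes. Adam7 was 0.23 higher. Adam28 had the largest difference, -1.24, from 19.4 to 7.66 counts, which is 1.35 times the model SD of the difference. It was the only member lower by 1 log2 unit, which 1.15% of genes were.

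Between DEHP and vehicle in FVB/N, 1 member passed the threshold, Adam28. It was 84.3-fold higher after DEHP, with a log2 ratio of 6.32. Higher by 2 log2 units were 1 of 8 members with enough counts and 0.662% of all genes, and lower were 0 members and 0.0182% of all genes. The difference in Adam28 was 0.927 times its model SD. Scaling the conditions in other ways or adding 0.1 or 10 to each count kept its log2 ratio between 5.80 and 6.39.

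The other members were slightly above their vehicle values in FVB/N. Adam1b was higher by 1.11 on the log2 scale (10.97 to 24.8 counts), Adam3 by 0.84, Adam2 by 0.81, Adam7 by 0.53, Adam32 and Adam5 by 0.36, Adam24 by 0.32 and Adam1a by 0.22. With the threshold lowered to 1 log2 unit, Adam1b joined Adam28, and 2.16% of genes were that much higher. For each of these 8 genes the difference was at most 1.33 times its model SD. The germ cell markers were higher by a median of 0.52. With the conditions scaled to equal sums of these markers, the testicular median was 0.11 and 1 of the 7 testicular members lay below 0. With scaling by the median ratio of the markers, a setting chosen after seeing the data, it was -0.04 and 4 of the 7 lay below 0.

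The interaction of strain and exposure, the log2 ratio in FVB/N minus that in C57BL/6J, was 7.56 for Adam28. It lay between -0.06 (Adam24) and 1.13 (Adam1b) for the others, with Adam2 at 1.06, Adam3 at 0.92 and Adam7 at 0.30. A difference of at least 2 was found for Adam28 among the members and for 0.997% of the 17556 genes. At 1 log2 unit Adam1b and Adam2 were added, against 4.45% of genes.

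Adam28 did not stand alone in FVB.D300.F1. The 14 markers of the proximal epididymis, among them the lipocalins Lcn5 and Lcn8 and the glutathione peroxidase Gpx5, summed to 41838 counts there and to 232, 330, 342 and 366 in FVB.CTL.F1, C57.D300.F2, C57.D300.F1 and C57.CTL.F1. All 14 had at least 10 counts in FVB.D300.F1, and 4 to 6 of them reached 10 counts in the other conditions. All 14 were higher than in FVB.CTL.F1 by 2 log2 units, beside 0.662% of all genes. Lcn5, Lcn8, Lcn9, Gpx5, Defb30, Spag11b and Spint4 carry the DEHP-resistance label in the paper. That label was given for a rise in FVB.D300.F1 in these same data. The rise of these genes therefore repeats that result and adds no separate evidence. Over the 14 markers the model SD was 0.857 of the count at the median in FVB.D300.F1, with a range of 0.499 to 3.32. Per 1000 counts of these markers, Adam28 had 53.0, 22.4 and 22.5 counts in the C57BL/6J conditions, and 82.4 in FVB.CTL.F1 against 38.5 in FVB.D300.F1. On that scale FVB.D300.F1 fell within the range of the other conditions, where the ratio rests on only 7.43 to 19.4 counts of Adam28. Gpx5 alone had 24121 of the marker counts in FVB.D300.F1, 71.4 in FVB.CTL.F1 and 202 in C57.CTL.F1. The scale therefore rests largely on 1 gene, and no conclusion is drawn from it. Of the 5 blood markers with enough counts, 2 were higher by 2 log2 units after DEHP in FVB/N, both of them globins. Hba-a2 had 411 counts with vehicle and 2213 after DEHP, and Hbb-bs had 453 and 2276. Ptprc, which encodes the leukocyte antigen CD45, had 116 and 132 counts in those conditions and 249 to 490 in C57BL/6J. In libraries made from whole sperm samples, fewer cells of a type and less RNA per cell cannot be told apart, and the part of epididymal or blood RNA in the Adam28 count was not tested.

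Adam7 was set beside the other epididymal markers. The 11 markers of the distal epididymis with values in all conditions summed to 36462 to 44264 counts, of which the protease inhibitor Spink8 alone had 29301 to 38020. In FVB.D300.F1 against FVB.CTL.F1, 4 of the 10 genes of this list with enough counts were higher by 2 log2 units, beside 0.662% of all genes. They were the lipocalin Lcn6 (1.29 to 428 counts), Defb42 (87.5 to 1130), Defb48 (74.7 to 530) and Spink11 (385 to 3244). The median of the list was 1.37. Against C57.D300.F1, 7 of the 11 were that much higher in FVB.D300.F1, beside 2.65% of all genes. Lcn6 lies between Lcn5 and Lcn10 of the proximal list, and like them it was under 10 counts outside FVB.D300.F1. Whether Lcn6 marks the distal epididymis was not tested. The 10 markers of epididymal epithelium summed to 11962 to 21189 counts over the conditions. Per count of the epithelium markers, Adam7 had 1.71, 2.35 and 1.96 counts in the C57BL/6J conditions and 1.76 and 2.80 in the FVB/N conditions. Crisp1, a further distal marker, had failed estimates in 3 conditions and was left out of these sums.

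**Figure D2:**
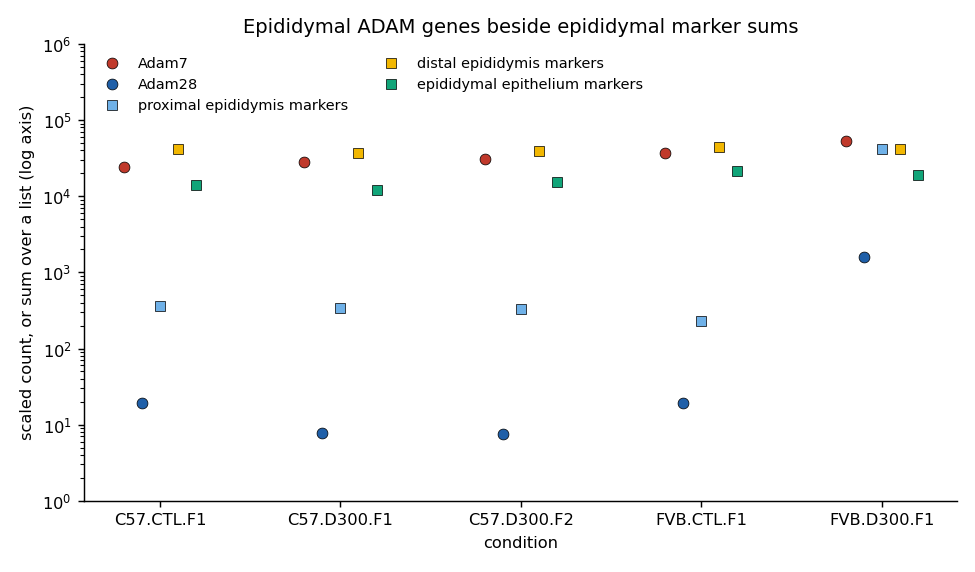
Scaled counts of Adam7 and Adam28 (circles) beside the summed counts of the proximal, distal and epithelial epididymis marker lists (squares), on a log axis, in the 5 conditions. Adam28 and the proximal markers are high together in FVB.D300.F1, at 1612 and 41838 counts. Adam7 and the sums of the distal and epithelial lists stay between 11962 and 53922 counts. Most of the distal sum is from Spink8, and 4 genes of that list are higher in FVB.D300.F1 than with vehicle.

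The testicular members differed most between the strains. FVB.CTL.F1 was lower than C57.CTL.F1 by 2 log2 units for Adam2 (-3.03), Adam3 (-2.89), Adam32 (-2.89) and Adam5 (-2.44), which are 4 of the 9 members, beside 8.88% of all genes. No member was higher, beside 1.44% of all genes. Each of the 4 differences was 3.27 to 3.56 times its model SD. Adam24 (-1.05), Adam1a (-0.96) and Adam1b (-0.79) did not reach the threshold, and neither did Adam7 (0.64) or Adam28 (-0.02).

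These directions depend on the scale. The median of the 7 testicular members was -2.44 beside -0.03 for all genes, and the median of the 12 germ cell markers was -3.51, with all 12 lower by 2 log2 units. With the conditions scaled to equal sums of the germ cell markers, which moves the median of all genes to 3.50, the testicular median was 1.16 and 0 of the 7 were below 0. Then Adam1a, Adam1b, Adam24, Adam7 and Adam28 were higher by 2 log2 units, and Adam2 (0.53), Adam32 (0.67), Adam3 (0.70) and Adam5 (1.16) were not. Adam2, Adam3, Adam5 and Adam32 remained lower by 2 log2 units when the conditions were scaled by their totals, their upper quartiles or the median ratio over all genes.

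The exposed F1 conditions gave a similar picture between strains. FVB.D300.F1 was lower than C57.D300.F1 for Adam32 (-2.44) and Adam5 (-2.23), beside 7.67% of genes, and Adam2 and Adam3, both at -1.97, lay just short of the threshold. Scaling to equal totals brought Adam2 and Adam3 past it. Adam28 was higher, by 7.54 on the log2 scale or 211-fold, beside 2.65% of genes. At 1 log2 unit, 5 members were lower, beside 19.9% of genes, and Adam28 was still the single higher one, beside 12% of genes. The testicular median was -1.97 as deposited, -2.83 for the germ cell markers, and 1.12 for the testicular members after scaling to equal sums of those markers.

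Per 1000 counts of the germ cell markers, the 7 testicular members together had 17.4, 20.3 and 26.7 counts in the C57BL/6J conditions and 36.4 and 44.3 in the FVB/N conditions. Their raw sums were 1591, 1574, 845, 273 and 400. On the germ cell scale the ratio of the highest to the lowest value was smallest for Adam32, from 2.30 to 3.95 counts. Adam2 followed, from 2.18 to 4.70, and the ratio was largest for Adam1b, from 0.214 to 2.75. Adam7 had 15.0, 17.8, 36.0, 137 and 135 times the summed counts of the 7 testicular members in the same order, without division by length.

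**Figure D3:**
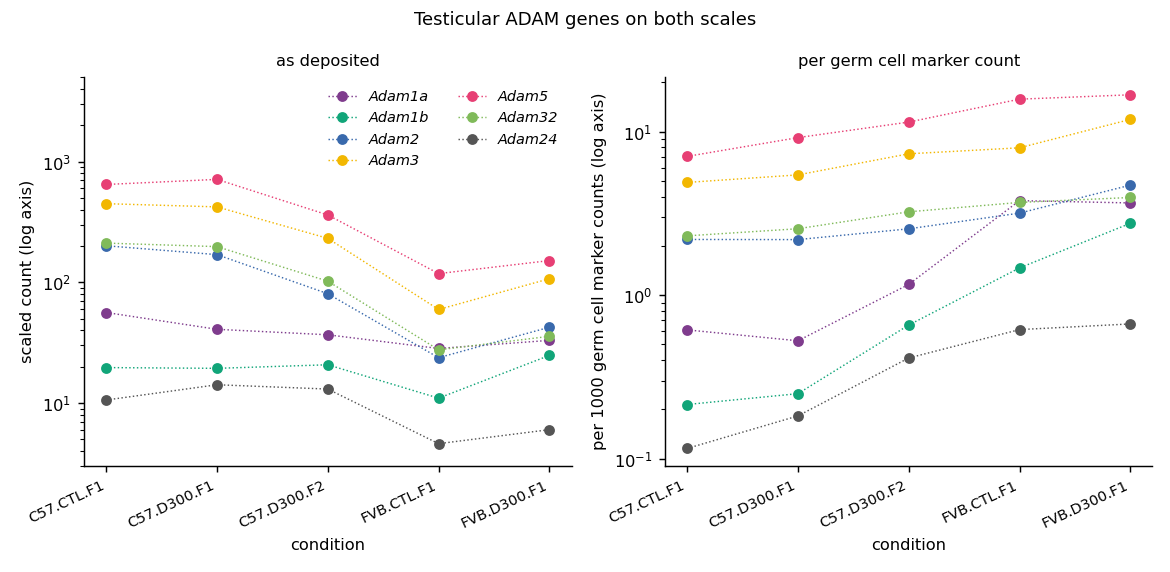
Scaled counts of the 7 testicular ADAM genes as deposited (left) and per 1000 counts of the 12 germ cell markers (right), both on log axes, in the 5 conditions, with dotted lines that only join the points of a gene. As deposited the sums run from 1591 in C57.CTL.F1 to 273 in FVB.CTL.F1, and per 1000 germ cell marker counts from 17.4 to 36.4.

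The abundant testicular members of the F2 lay between the F1 conditions of both strains. Against C57.CTL.F1, no member of C57.D300.F2 was higher or lower by 2 log2 units, beside 0.584% and 3.61% of all genes. At 1 log2 unit, Adam2 (-1.31), Adam28 (-1.27) and Adam32 (-1.04) were lower, 3 of 9 members beside 10.2% of genes. The testicular median was -0.84 beside -0.04 for all genes and -1.09 for the germ cell markers, and it became 0.69 after scaling to equal sums of those markers.

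Against C57.D300.F1, the males of the generation before, 0 of the 8 members with enough counts in C57.D300.F2 passed 2 log2 units, beside 0.333% of genes higher and 3.3% lower. Adam2 (-1.07) was the only member lower by 1 log2 unit, beside 8.35% of genes. Adam5 was at -0.98, Adam32 at -0.94 and Adam3 at -0.86, each 1.64 to 1.81 times its model SD, and Adam1b, Adam24 and Adam7 lay between -0.11 and 0.12. Both F2 comparisons use the same C57.D300.F2 values, and the comparison with C57.CTL.F1 shares its reference with the strain comparison of vehicle conditions.

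The rest of the ADAM family gave a measure of what was shared. Of 13 other testis ADAMs, 4 had 10 counts or more with vehicle in either strain, and 3 of these were lower in FVB/N, beside 8.88% of all genes. They were Adam18 (75.5 to 10.8 counts), Adam21 (50.4 to 11.1) and Adam30 (16.8 to 3.33). Adam4 was at 0.79 on the log2 scale, from 16.2 to 28.8 counts. Between the exposed F1 conditions 4 of 7 were lower in FVB.D300.F1, namely Adam18, Adam20, Adam25 and Adam30, beside 7.67% of all genes. In the other 4 comparisons none of the 13 reached the threshold.

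None of the 12 somatic ADAMs, expressed outside the germ line, was higher or lower by 2 log2 units in any of the 6 comparisons. Adam23 was the most abundant, with 904 to 1615 counts, followed by the ubiquitous sheddase Adam10, with 651 to 1118, and by Adam15, with 363 to 578. Between the vehicle conditions, FVB/N against C57BL/6J, the median of the somatic ADAMs was -0.31, that of all 13 other testis ADAMs was -1.34 and that of the testicular members was -2.44.

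**Figure D4:**
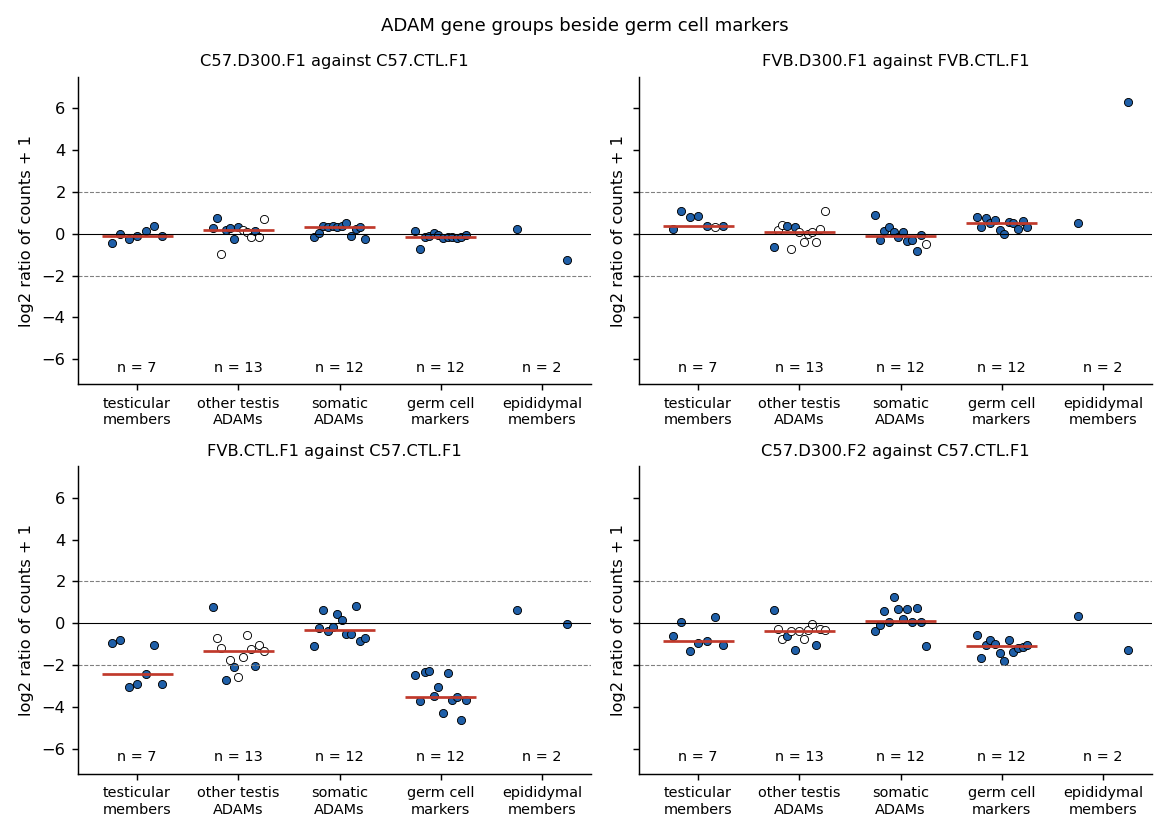
Log2 ratio of counts with 1 added, for each gene of 5 groups in 4 comparisons, with the median of a group as a red bar and open circles for genes under 10 counts in both conditions. The testicular members and the germ cell markers are lower with vehicle in FVB/N than in C57BL/6J (medians -2.44 and -3.51) while the somatic ADAMs are at -0.31, and Adam28 is the point at 6.32 in FVB/N.

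Genes required for ADAM3 to mature gave a divided result. Of 13 such genes, 12 had enough counts in the strain comparison of vehicle conditions. FVB/N fell below C57BL/6J by 2 log2 units for 5 of these 12, beside 8.88% of all genes. They included the testis protein disulfide isomerase Pdilt (86.8 to 9.49 counts), Cmtm2a (88.0 to 13.4) and Lypd4 (81.6 to 15.8). The others were the protease homologue Prss37 (29.3 to 5.62) and Cmtm2b (80.8 to 17.0). The chaperone Clgn had 187 and 49.5 counts there, which missed the threshold, and Calr3 had 83.1 and 82.9. After DEHP in FVB/N, 2 of the 10 with enough counts were higher, beside 0.662% of all genes, and both are known from epididymal epithelium. The counts are per gene and do not separate transcripts of one gene. Rnase10, a secreted ribonuclease homologue, had 766 counts in FVB.D300.F1 and 25.3 in FVB.CTL.F1, and Ace, the angiotensin-converting enzyme, 2693 and 523. Tpst2, a protein tyrosine sulfotransferase, had 346 to 623 counts and was second to Ace in this list by the mean over the conditions. FVB.D300.F1 against C57.D300.F1 had 3 lower (Pdilt, Lypd4 and Pmis2), beside 7.67% of all genes, and 1 higher (Rnase10), beside 2.65%. The remaining 3 comparisons had none.

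The nearest genes did not share the pattern of Adam28. Adamdec1 lies between Adam7 and Adam28, and it had 13.2, 10.9, 5.62, 7.83 and 5.33 counts. Its value was thus lowest where that of Adam28 was highest, and Adam7 was at most 2.25-fold apart between conditions. In the row on chromosome 8, Adam18, Adam3, Adam5 and Adam32 shared the low FVB/N values. The next gene, Adam9, a widely expressed ADAM, had 447, 467, 423, 383 and 312 counts, and Ido1, on the other side, had 487, 510, 771, 836 and 1101. These neighbours, within 250 kb, were chosen after the values had been seen.

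**Figure D5:**
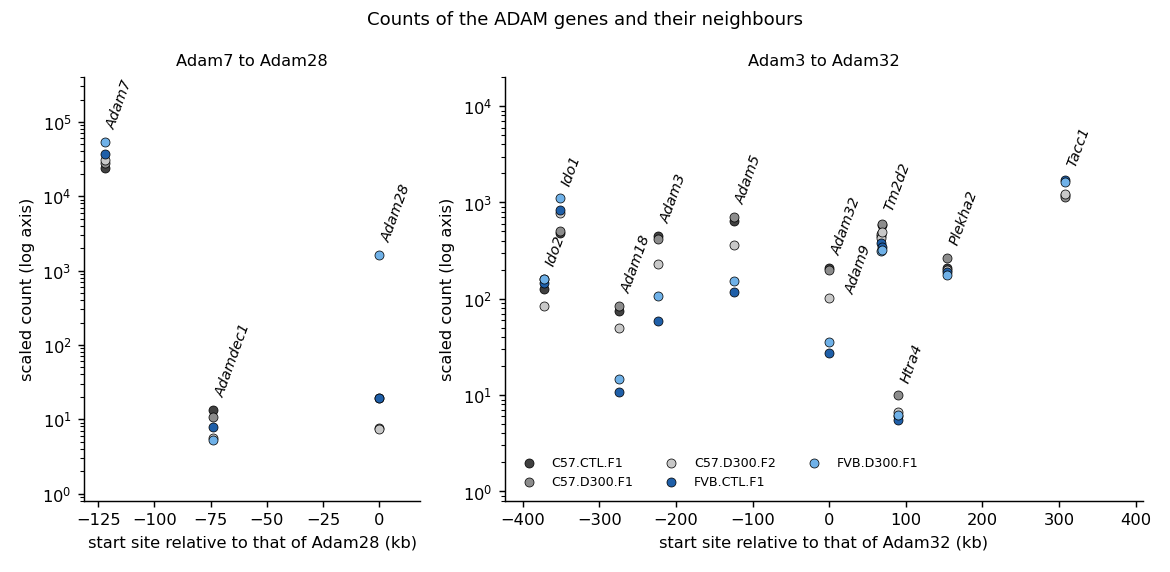
Scaled counts (log axis) of genes within 250 kb of the Adam7 to Adam28 and Adam3 to Adam32 groups, placed by the distance of their start sites in kb from that of Adam28 (left) or Adam32 (right). Adamdec1 stays between 5.33 and 13.2 counts beside Adam28, and the testicular ADAM genes are flanked by Ido1, Ido2 and Adam9 with other patterns.

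Likeness of pattern was measured as the Euclidean distance between centred log2 profiles over the 5 conditions, among 11238 genes with at least 100 counts in 1 condition. It is a description over 5 values, and the cell types behind the matches were not tested. Closest to Adam2 were Gk2 (distance 0.137), Dnajb13, Cdrt4, Kif27 and Syce1. Closest to Adam3 were Kif27 (0.126), Nme5, 5330417C22Rik, Tmem53 and Gtf2a1l. Closest to Adam5 were Tmem232 (0.0879), Sla, Cfap43, Adgre1 and Ccdc158, and closest to Adam32 were 2810408A11Rik (0.0908), Tuba3b, Wnt3, Cd72 and Gm5893.

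The genes nearest to Adam28 were Spint5 (0.529), Cst11, Clpsl2, Rnase13 and Defb20. Each of them, like Adam28, reached 100 counts only in FVB.D300.F1, so these matches rest on that condition. Spint5, a protease inhibitor, had 273 counts in FVB.D300.F1, Cst11, a cystatin, 337, and Defb20, a beta-defensin, 1598. In the other conditions Spint5 and Cst11 were under 3 counts and Defb20 had 15.7 to 27.9. Cst11 and Defb20 belong to the proximal epididymis list above, so their likeness repeats those values and adds no separate evidence. Adam7, Adam1a, Adam1b and Adam24 spanned less than 2 log2 units or stayed under 100 counts and were not matched.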

How the data were processed

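The authors clipped the adapter, kept reads of at least 18 bases, mapped them to mm10 with TopHat with a strand setting, and quantified genes with Cuffdiff. The versions of TopHat and Cuffdiff are not given in the sources used here. The deposited signal is 1 scaled, estimated fragment count per gene and condition, and the deposited variance is that of the count under Cuffdiff's model, of which the square root was used as the model SD. In all, 10 columns were used and 10 columns of other variance terms were not. Estimates that Cuffdiff marked as failed, for 71 genes, were treated as missing.

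Ratios used counts with 1 added, a minimum of 10 counts in 1 compared condition and a threshold of 2 log2 units, over 6 comparisons. Counts of 3 were taken as the limit of detection. Positions and coding sequences came from GENCODE M21 on GRCm38, the same build as mm10. All members were named, as were list genes past the threshold and the 3 most abundant of each list, and the 5 nearest profiles for members above 100 counts that spanned 2 log2 units. The members and lists were chosen with earlier results of these data known. The procedure was tested on simulated counts with counting noise only and with changes planted in genes of at least 100 counts. That test does not cover the larger model SD or the low counts of several members. Python 3.11.15, numpy 2.4.6, pandas 2.3.3 and matplotlib 3.10.9 were used. Depth is given in the report. Apart from the search for the zinc-binding motif in translated coding sequences, proteins were not compared here.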

Additional observations from a re-analysis of the deposited data

How the results depend on the processing

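The counts of members past the threshold were recomputed under 10 other settings and the values of single genes and the testicular medians under 7 of these, and all of them also under 1 chosen after seeing the data, scaling by the median ratio of the germ cell markers. Of 504 recomputed values of single genes, 436 stayed within the model SD, 56 moved and 12 reversed. Only values past 2 log2 units in the main setting could count as reversed, so other changes of sign are among those that stayed or moved. For C57.D300.F2 against C57.CTL.F1, scaling to equal germ cell marker sums took Adam2 from -1.31 to 0.21 and Adam3 from -0.95 to 0.58. It took Adam5 from -0.84 to 0.69 and Adam32 from -1.04 to 0.48. The reversed ones came from scaling on germ cell markers, by sums or by the median ratio. The direction of the testicular members therefore depends on whether they are set against all RNA or against germ cell markers. Both of those marker scalings used the same 12 markers, and the choice of markers was not tested. For FVB.CTL.F1 against C57.CTL.F1 those scalings gave 0.53 and 0.32 for Adam2, 0.70 and 0.49 for Adam3, 1.16 and 0.94 for Adam5, 0.67 and 0.46 for Adam32, and a testicular median of 1.16 and 0.94. The count past 2 log2 units became 5 and 4, all higher. For FVB.D300.F1 against C57.D300.F1 they gave 0.87 and 0.62 for Adam5, 0.63 and 0.38 for Adam32, a median of 1.12 and 0.87, and 4 members in both cases, all higher. The median became 0.69 and 0.40 for C57.D300.F2 against C57.CTL.F1, 0.43 and 0.25 against C57.D300.F1, and 0.16 and 0.12, from 0.67, for strain by exposure. Scaling to equal totals gave 5 members for FVB.D300.F1 against C57.D300.F1 in place of 3.

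A threshold of 1 log2 unit gave 1 member for DEHP in C57BL/6J, 2 in FVB/N, 3 and 1 for C57.D300.F2 against C57.CTL.F1 and C57.D300.F1, 6 for FVB.D300.F1 against C57.D300.F1 and 3 for strain by exposure. The cause of these changes was not tested, other than that a lower threshold admits more genes. No paired analysis was possible because the columns hold 1 value per condition and carry no replicate number, and for the same reason no library could be left out in turn. Precision is limited by Adam24, Adam28 and Adam1b, which are near 10 counts in several conditions.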
